A study of Mus musculus with 8 samples.

Results

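The genes described here encode the proteins of the cytosolic ribosome. They were chosen by name: 79 of the 41325 gene symbols listed for every library start with *Rpl* or *Rps* followed by a number (or by P0, P1 or P2 for the stalk proteins), with an a, x, y or l at most behind it. No measured value was used in this choice, and pseudogenes were left out. Of the 79 genes, 76 were expressed, meaning an RPKM (a read count normalised to exon length and to the mapped reads of the library) above 1 in at least 1 library, among 11513 expressed genes in all. The expressed members comprise 46 genes of the large subunit and 30 of the small subunit.

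The cells were C3H10T1/2, mesenchymal stem cells (MSCs) of the mouse, which can be turned into adipocytes by insulin, dexamethasone and isobutylmethylxanthine given after confluence. A control line carrying a control shRNA (shControl, genotype WT in the labels) and lines with stable knockdown of the histone demethylase KDM4D (shKDM4D), of the transcription factor NFIB (shNFIB) or of the H3K4 methyltransferase MLL1 (shMLL1) were sequenced at day 0 and at day 5 of differentiation. Per the methods, the knockdown lines came from puromycin-resistant clones that carry a pLKO.1 shRNA vector, so a difference between lines may also be a difference between clones, and the 2 cannot be told apart here. There was 1 library for each of the 8 conditions. No p-value is therefore given for a comparison of 2 libraries, and the exact 95% intervals in brackets cover counting error only, not the spread between cultures.

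The number of mapped reads, recovered from the RPKM values, ranged from 15800000 (shNFIB, day 5) to 38200000 (shMLL1, day 0). *Nfib* had an RPKM of 9.92 in shControl and 2.31 in shNFIB cells at day 0, and 17.0 and 3.38 at day 5. *Kmt2a*, which encodes MLL1, was at 5.17 against 2.00 with MLL1 knockdown at day 0 and at 5.27 against 1.63 at day 5. *Kdm4d* lay at 0.24 or lower in every library, too low for a check of the knockdown at day 0. The summed RPKM of 7 adipocyte markers was 10.95 before and 777 after differentiation of the control line, 7.42 and 38.6 for shKDM4D, 7.40 and 12.01 for shNFIB, and 4.09 and 12.3 for shMLL1. The sum of 7 mesenchymal markers lay between 2186 and 3626, but of these *Thy1* was at 25.01 in the control line at day 0 and at 0.02 with depletion of KDM4D or NFIB. The sums of macrophage, endothelial and epithelial markers reached 1.66, 0.15 and 1.68 at most, and that of 3 smooth muscle markers lay between 848 and 1287 at day 0 but between 290 and 879 at day 5. Whether these differences have a part in the values below was not tested. Bulk RNA does not separate fewer cells of a type from less RNA per cell.

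The ribosome is built in the nucleolus, where ribosomal RNA is transcribed, processed and joined with proteins that are imported from the cytoplasm. Each protein is present in a single copy per ribosome, apart from the P1 and P2 proteins of the stalk. These mRNAs start with a pyrimidine tract (the TOP motif), by which mTOR signaling and the binding protein LARP1 control their translation. In mammals each protein usually comes from a single gene with introns, while many intronless processed copies are scattered over the genome.

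The pyrimidine-rich starts can be seen in the promoter sequences of RefSeq (GRCm38.p6), which cover 59 of the 79 genes. The letters CTTTCC or CTCTTT, which can overlap each other as in CTCTTTCC, were searched on the sense strand from 50 bases before to 50 bases after the annotated start. They were found in 30 of the 59 genes (50.8%), against 8.11% of 8881 expressed genes and 9.29% of all 27025 genes with a promoter sequence. Searched on both strands, CTTTCC was in 33.9% of the members (9.78% of expressed genes) and CTCTTT in 32.2% (6.44%). CCGGAAG, letters of the ETS factor motif, was in 22.0% of the members on both strands and in 13.9% of the expressed genes, and TATAAA in 6.78% and 3.04%. A match is a description of the letters only. The following stretches run from 40 bases before to 20 bases after the annotated start. They are a choice among genes with values given below that hold these letters there. Genes without the letters in this stretch, and some with them, are not shown. Capitals mark CTTTCC and CTCTTT.

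Rpl4 (chr9:64173347-64173406, plus strand): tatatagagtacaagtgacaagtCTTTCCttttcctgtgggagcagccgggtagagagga
Rpl13a (chr7:45128726-45128785, minus strand): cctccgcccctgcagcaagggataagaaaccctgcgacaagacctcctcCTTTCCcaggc
Rpl35 (chr2:39005112-39005171, minus strand): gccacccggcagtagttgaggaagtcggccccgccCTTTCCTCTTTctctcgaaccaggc
Rps6 (chr4:86857348-86857407, minus strand): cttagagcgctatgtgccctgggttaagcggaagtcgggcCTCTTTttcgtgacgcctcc
Rps24 (chr14:24490713-24490772, plus strand): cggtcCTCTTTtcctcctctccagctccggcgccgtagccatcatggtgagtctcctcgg
Rps26 (chr10:128626487-128626546, minus strand): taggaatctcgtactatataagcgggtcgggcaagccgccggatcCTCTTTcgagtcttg
Rps27 (chr3:90213629-90213688, minus strand): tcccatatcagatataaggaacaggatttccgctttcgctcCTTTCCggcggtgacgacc

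In *Rps6*, *Rps26* and *Rps27* the capitals begin at or shortly after the annotated start, in *Rpl35* they span it, and in *Rpl4* and *Rps24* they lie upstream of it. The 29 expressed members with these letters and the 27 without them had medians close to each other in each comparison. For shMLL1 over shControl cells at day 5, the median log2 ratio was 0.28 with and 0.25 without the letters, and for shNFIB cells at day 5 over day 0 it was 0.22 and 0.17.

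Ribosomal protein mRNAs were among the most abundant in every library. The median of their mean RPKM over the 8 libraries was 231, against 6.40 for all expressed genes, and 98.6% of the expressed genes lay below it. A total of 59 members were above an RPKM of 100 in all 8 libraries, and 26 of the 100 genes with the highest mean RPKM were members. Together they took 4.74% of the mapped reads of the control line at day 0 and 4.39% at day 5. The share was 4.61% and 3.95% for shKDM4D, 4.10% and 4.78% for shNFIB, and 4.97% and 5.25% for shMLL1. The lowest and the highest share thus both came from day 5, in shKDM4D and in shMLL1 cells.

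**Figure D1:**
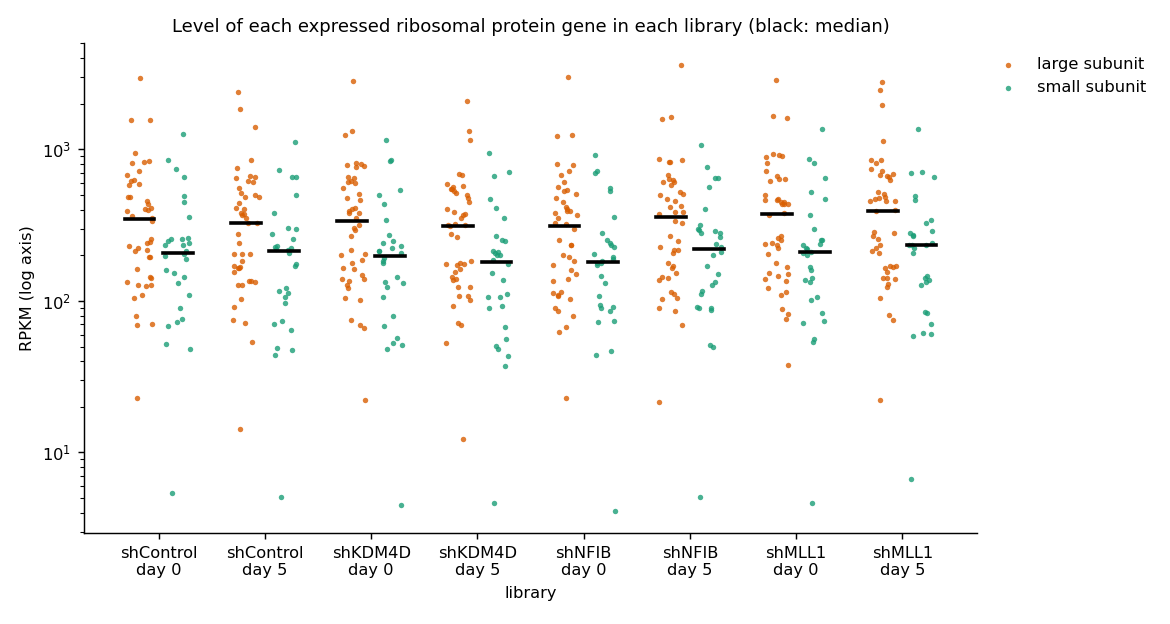
RPKM (log axis) of the 76 expressed ribosomal protein genes in each of the 8 libraries, with large subunit genes in orange, small subunit genes in green and the median of each as a black bar. The median of the large subunit genes lay between 310 and 395 and that of the small subunit genes between 181 and 233, and a single small subunit gene, *Rps18*, lies far below the others.

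Among the large subunit genes, *Rplp1*, which encodes an acidic protein of the stalk that binds elongation factors, had the highest RPKM of all members. At day 0 and day 5 it was at 2939 and 2386 for shControl, 2835 and 2071 for shKDM4D, 2985 and 3603 for shNFIB, and 2879 and 2783 for shMLL1 cells. *Rpl17* (mean 1618), *Rpl19* (1479) and *Rpl36* (836) followed in this subunit, and *Rps6*, the substrate of S6 kinase, led the small subunit with a mean of 1151. The lowest expressed members were *Rps18* (5.00), *Rpl27* (22.0), *Rps13* (50.1), *Rps15a* (50.5) and *Rps27l* (66.8). RPKM divides by the whole exon length of a gene, which was 1 to 9.80 times the length of the principal mRNA (median 2.13), and across members RPKM went down with this length (Spearman's rho -0.50). Calculated per length of the principal mRNA, rho was -0.19. Below, a gene is therefore compared with itself between libraries.

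The members varied little. The highest of the 8 RPKM values of a gene was a median of 1.49 times the lowest, compared with 1.72 times for the 3001 genes with an RPKM above 10 in every library. For 73 members this range was under 2-fold. The other 3 were *Rpl27* (3.06-fold), *Rps27l* (2.43-fold) and *Rps2* (2.11-fold).

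During differentiation of shControl cells, the median log2 ratio of the 76 members between day 5 and day 0 was -0.10, against 0.03 for all expressed genes. A total of 55 members were lower at day 5 and 21 higher. On the TPM scale 42 were lower and 34 higher, with a median of -0.02, and by quantile normalization 69 were lower and 7 higher. More than 1.5-fold lower were 3 members, *Rps2*, *Rpl27* and *Rps27l*, and none was more than 1.5-fold higher, where the background of all expressed genes was 17.5% lower and 22.7% higher. In shKDM4D cells the median was -0.22 (all genes 0.03), with 65 members lower and 11 higher. There, 3 members were more than 1.5-fold lower and none higher, with a background of 16.8% and 21.9%.

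In shNFIB cells the direction was the opposite. The median was 0.20 against 0.09 for all genes, with 70 members higher and 6 lower at day 5. After quantile normalization, however, 39 were higher and 36 lower, with a median of 0.01. Only *Rps24* was more than 1.5-fold higher and none was lower, with a background of 22.4% and 12.6%. In shMLL1 cells the members were divided, with 46 higher and 30 lower and a median of 0.06 against 0.17 for all genes. Here the scaling decided the direction, with 57 higher and 19 lower on the TPM scale, 25 and 51 by median-of-ratios scaling, 28 and 46 by quantile normalization, and 30 and 46 without rRNA-like genes. More than 1.5-fold higher were 2 members (*Rps24* and *Rps27*) and more than 1.5-fold lower were 2 (*Rpl27* and *Rps2*), where 32.2% and 15.6% of the expressed genes passed these limits. No member passed 2-fold in any of the 10 comparisons, and in each of them the share of members past 1.5-fold was below the background in both directions.

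**Figure D2:**
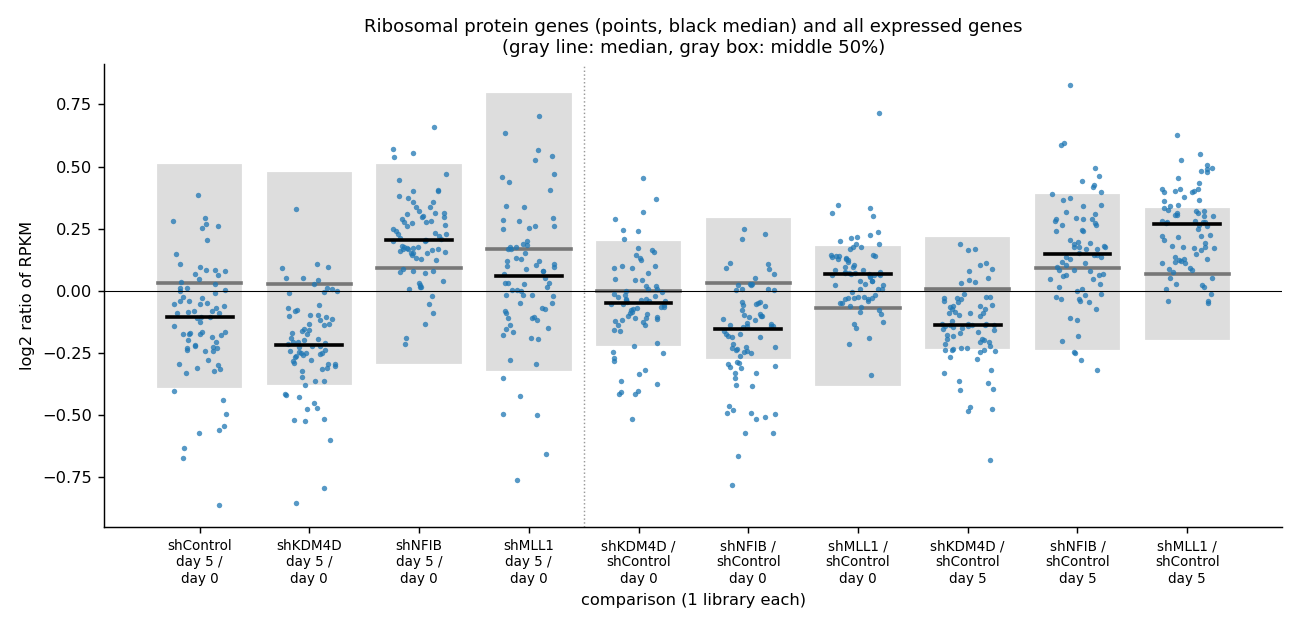
Log2 ratio of RPKM of each of the 76 expressed ribosomal protein genes (points, black bar: median) in 10 comparisons of 2 libraries, with the median (gray line) and middle 50% (gray box) of 11513 expressed genes. The points are below the gray line for 69 members in shKDM4D cells at day 5 over day 0 and above it for 66 in shMLL1 over shControl cells at day 5.

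These medians depend on how the libraries are scaled. Transcripts of the rRNA-like genes *AY036118* and *CT010467.1* took 7.95% to 10.5% of the reads at day 0 and 3.07% to 3.62% at day 5, which moves with the day and enters the total that RPKM divides by. Without these reads the median at day 5 over day 0 was -0.21 for shControl, -0.29 for shKDM4D, 0.13 for shNFIB and -0.06 for shMLL1 cells. The position of the members relative to all expressed genes does not depend on a factor per library. Below the median of all expressed genes were 59 of the 76 members for shControl, 69 for shKDM4D, 17 for shNFIB and 51 for shMLL1. Quantile normalization, which is not a factor per library, changed the last of these to 33 and left 65, 68 and 31 in the other lines. The other scalings are each a factor per library and cannot change this position, so only quantile normalization was a check of it. By quantile normalization the direction relative to all genes was kept in shControl and shKDM4D cells. It was also kept in shNFIB cells, with 45 members above and 31 below, but not in shMLL1 cells.

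Between lines at day 0, the members had a median of -0.05 in shKDM4D over shControl cells (all genes -0.00) and no member past 1.5-fold, where the background was 5.39% higher and 8.72% lower. In shNFIB cells the median was -0.15 (all genes 0.03), 59 members were lower than in shControl cells, and 67 lay below the median of all genes. More than 1.5-fold lower were 2 members, among them *Rpl13*, and no member was higher, against a background of 12.2% and 8.73%. In shMLL1 cells the median was 0.07 (all genes -0.07) and 53 members were higher. Only *Rpl27* was more than 1.5-fold higher and none lower (background 4.73% and 15.9%). Of these members 67 lay above the median of all genes, but 27 did so after quantile normalization, where the median of the members was 0.00.

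At day 5 most members were below the control line in shKDM4D cells and above it in shNFIB and shMLL1 cells. In shKDM4D cells 65 members were lower than in shControl cells, with a median of -0.14 (all genes 0.01), and only *Rps15* was more than 1.5-fold lower and none higher (background 9.38% and 5.22%). In shNFIB cells 59 members were higher, with a median of 0.15 (all genes 0.09). The 3 that were more than 1.5-fold higher were *Rps27l*, *Rplp1* and *Rpl27*, and none was lower (background 14.6% and 11.7%). In shMLL1 cells 72 members were higher, with a median of 0.27 (all genes 0.07), and only *Rpl27* was more than 1.5-fold higher and none lower (background 12.4% and 8.76%). All 3 comparisons at a day use the same shControl library. The excess of shMLL1 over shControl cells at day 5 was between 0.17 and 0.27 under each scaling.

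The pattern within the family was similar in the 4 lines, although the medians differed. Across the 76 members, the day 5 over day 0 log2 ratios of shControl cells had a Pearson's r of 0.76 with those of shKDM4D, 0.73 with shNFIB and 0.82 with shMLL1 cells, and r was 0.62 to 0.86 between the knockdown lines. These comparisons share no library, but they share the gene models, and genes are not independent replicates. Set against the median of the members in the same line, which no factor per library can change, 21 members were lower and 20 were higher in all 4 lines. Neither these counts nor r were calculated for all expressed genes. They therefore do not show that agreement between lines is particular to the members. More than 0.2 below on the log2 scale in all 4 lines were *Rps2*, *Rpl4*, *Rpl12*, *Rpl27* and *Rps27l*, and more than 0.2 above were *Rps24*, *Rps27*, *Rpl9* and *Rpl39*. These limits were set after the values were seen. With the reads of its listed copy added, *Rpl27* had -0.16, -0.23, 0.32 and 0.15 in shControl, shKDM4D, shNFIB and shMLL1 cells. The medians of the members were -0.10, -0.22, 0.20 and 0.06, so *Rpl27* was then not more than 0.2 below them in any line.

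The 4 lines, each with a library of day 0 and of day 5, allow a fit of the day with the line as a block (limma on log2(RPKM + 1), 3 residual degrees of freedom before moderation), which takes the lines as replicates of the day and leaves their different knockdowns in the error. Of the 76 members, 3 were higher and 4 lower at day 5 with an adjusted p below 0.05, where the background was 28.1% higher and 20.7% lower among 11513 genes. The lower ones were *Rps2* with a mean log2 difference of -0.63 (95% interval -0.94 to -0.31, limma adjusted p = 0.0103), *Rpl27* with -0.57, *Rpl4* with -0.39 and *Rps27l* with -0.42. Of the reads of *Rpl27* and its listed copy together, 83.1% were in the copy. With these added, *Rpl27* was lower at day 5 only in shControl and shKDM4D cells and higher in shNFIB and shMLL1 cells. The fit was not run with them, so the call for *Rpl27* holds for its own reads only. The higher ones were *Rpl39* with 0.34 (0.13 to 0.54, limma adjusted p = 0.0198), *Rpl9* with 0.33 and *Rps27* with 0.37. By median-of-ratios scaling 0 members were higher and 8 lower, where 2922 and 2828 of the 11513 genes were called. By quantile normalization 0 members were higher and 17 lower, where 2385 and 3142 of all genes were called. At an unadjusted p below 0.05 (limma), 5 members were higher and 10 lower by median-of-ratios scaling, and 1 was higher and 23 lower by quantile normalization. In either direction 58.1% and 55.9% of all genes passed that limit. The members named here also stood out in the single lines, so the fit is no independent evidence for them.

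*Rps2* (GRCm38, as for the other genes, chromosome 17, from 24718116 to 24721929, plus strand) encodes uS5, a protein near the mRNA entry channel of the small subunit. Its RPKM was 204 at day 0 and 112 at day 5 for shControl, 183 and 105 for shKDM4D, 174 and 150 for shNFIB and 222 and 141 for shMLL1 cells. All 4 values of day 5 were below all 4 values of day 0. The log2 ratio was -0.86 (-0.92 to -0.81) for shControl, -0.79 (-0.85 to -0.74) for shKDM4D, -0.21 (-0.27 to -0.16) for shNFIB and -0.66 (-0.69 to -0.62) for shMLL1 cells. *Rps2* has 32 annotated near-identical copies, none of which is listed in the files.

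*Rpl4* (chromosome 9, from 64173375 to 64178666) encodes a large subunit protein that lines the exit tunnel, and 5 snoRNA genes lie within its span on the same strand. Its RPKM was 820 at day 0 and 605 at day 5 for shControl, 761 and 568 for shKDM4D, 720 and 632 for shNFIB and 934 and 662 for shMLL1 cells. The day 5 values were again all below the day 0 values, with log2 ratios of -0.44, -0.42, -0.19 and -0.50. *Rpl12*, which encodes a protein at the base of the stalk, was at -0.54, -0.60, -0.02 and -0.19 (lines in the order given for *Rpl4*), and for shNFIB the interval of -0.06 to 0.02 included 0.

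*Rps24* (chromosome 14, from 24487125 to 24496959) encodes a small subunit protein whose gene is mutated in some patients with Diamond-Blackfan anemia. Its RPKM was 212 and 258 for shControl, 213 and 214 for shKDM4D, 178 and 281 for shNFIB and 168 and 273 for shMLL1 cells at day 0 and day 5. The log2 ratio was 0.28 (0.26 to 0.30) in shControl, 0.66 (0.63 to 0.69) in shNFIB and 0.70 (0.68 to 0.72) in shMLL1 cells. In shKDM4D cells it was 0.01 (-0.02 to 0.03), and the sign changed with the scaling. *Rps27*, which encodes a zinc finger protein of the small subunit and has 1 copy listed in the files, had a like pattern with 0.26, 0.05, 0.54 and 0.64 in shControl, shKDM4D, shNFIB and shMLL1 cells. *Rpl9*, a large subunit gene, had 0.29, 0.04, 0.57 and 0.44, and in shKDM4D cells both *Rps27* and *Rpl9* changed sign under another scaling.

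*Rpl39* (X chromosome, from 37082520 to 37085402, minus strand) encodes the small protein of the exit tunnel and has no annotated near-identical copy. Its RPKM was 141 and 170 for shControl, 139 and 175 for shKDM4D, 150 and 208 for shNFIB and 135 and 164 for shMLL1 cells. Every day 5 value was above every day 0 value. The log2 ratios were 0.27, 0.33, 0.47 and 0.28, with the same sign under each scaling, and *Rpl39* was the only member whose profile over the 8 libraries had a negative correlation with the mean profile of the members (r = -0.13, where the median of the members was 0.71).

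**Figure D3:**
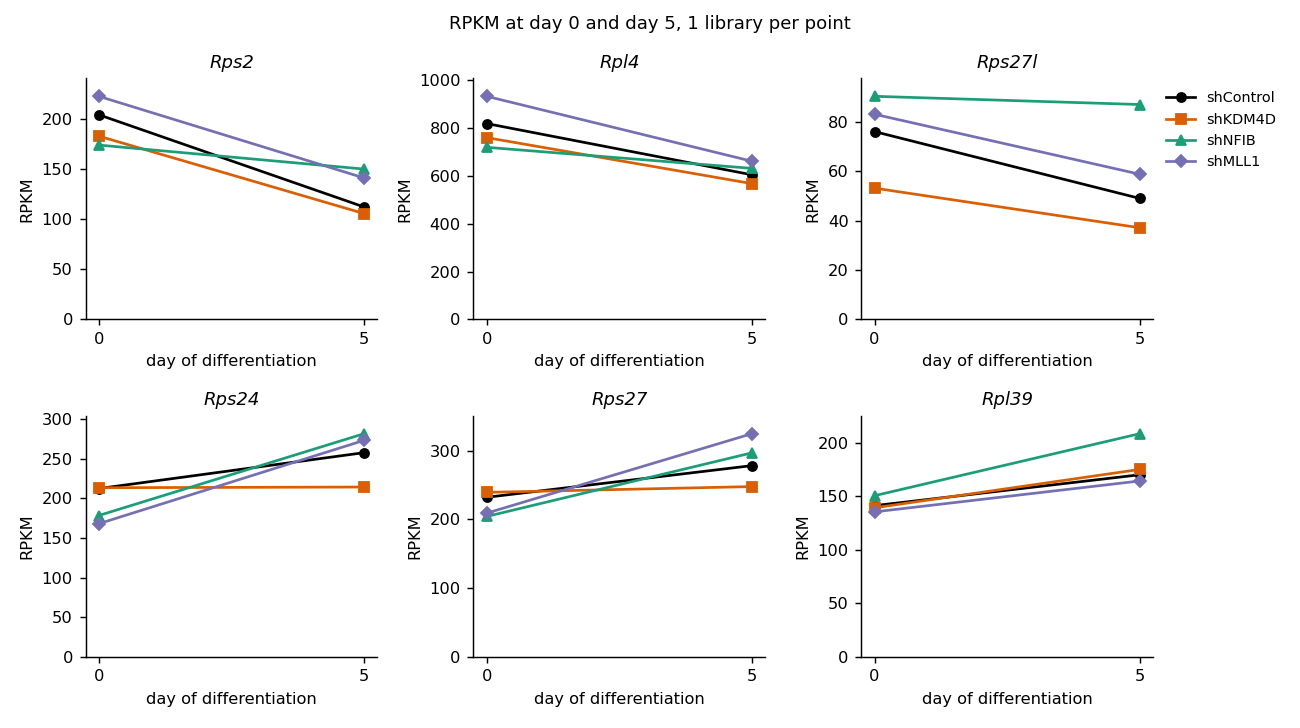
RPKM at day 0 and day 5 in the 4 lines for 3 members that were more than 0.2 below the members' median in all lines (*Rps2*, *Rpl4*, *Rps27l*) and 3 that were more than 0.2 above it (*Rps24*, *Rps27*, *Rpl39*), with 1 library per point. *Rps2* was at 105 to 150 at day 5 and at 174 to 222 at day 0, and *Rpl39* at 164 to 208 and at 135 to 150.

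Of the 4 members whose names end in l, only *Rps27l* was expressed. *Rpl10l* and *Rpl39l*, which are known from testis, were at 0 in all 8 libraries, and *Rpl3l*, known from striated muscle, had 3 reads in all. *Rps27l* (chromosome 9, from 66946086 to 66949516), a p53 target gene that encodes a relative of *Rps27*, has no annotated near-identical copy. Its RPKM was 76.0 and 48.9 for shControl, 53.1 and 37.1 for shKDM4D, 90.3 and 86.9 for shNFIB and 83.0 and 58.7 for shMLL1 cells. The log2 ratio at day 5 over day 0 was -0.63 (-0.76 to -0.51), -0.52 (-0.67 to -0.37), -0.05 (-0.17 to 0.06) and -0.50 (-0.59 to -0.41). At day 5 it was higher in shNFIB than in shControl cells by 0.83 (0.70 to 0.96), the largest ratio of any member in that comparison, and at day 0 by 0.25 (0.14 to 0.35). The log2 ratio of shKDM4D to the control line was -0.40 at day 5, and at day 0 it was -0.52. Its paralog *Rps27* went the other way with the day, as given above.

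The 3 stalk genes differed from each other. *Rplp1* and *Rplp0*, which encodes the stalk base, had log2 ratios of -0.30 and -0.33 at day 5 over day 0 in shControl cells and of -0.45 and -0.48 in shKDM4D cells. In shNFIB cells they were higher by 0.27 and 0.13. *Rplp2*, which encodes the partner of P1, had 0.09 for shControl, -0.29 for shKDM4D, 0.17 for shNFIB and 0.03 for shMLL1 cells. At day 5 *Rplp1* was higher in shNFIB than in shControl cells by 0.59 (0.57 to 0.62) and *Rplp0* by 0.37 (0.35 to 0.40), while *Rplp2* was at -0.03.

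*Rpl5* and *Rpl11* encode the proteins that bind 5S rRNA and, when free, the p53 regulator MDM2. *Rpl11* had an RPKM of 127 and 127 for shControl, 122 and 123 for shKDM4D, 89.4 and 105 for shNFIB and 140 and 141 for shMLL1 cells. It was thus low in shNFIB cells, with log2 ratios to the control line of -0.51 (-0.56 to -0.46) at day 0 and, less far apart, -0.28 (-0.34 to -0.23) at day 5. *Rpl5* had -0.10 and 0.20 in these comparisons, so the 2 genes differed from each other. *Rps27a*, which encodes ubiquitin fused to a ribosomal protein, was at -0.49 in shNFIB cells at day 0.

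*Rpl13* (chromosome 8, from 123102350 to 123105244) had an RPKM of 231 for shControl, 178 for shKDM4D, 135 for shNFIB and 241 for shMLL1 cells at day 0, and 205, 156, 165 and 256 at day 5. The shNFIB line was below the control line with a log2 ratio of -0.78 (-0.82 to -0.74) at day 0, and at day 5 with -0.32 (-0.36 to -0.27). *Rpl8*, also of the large subunit, was at -0.57 and 0.06 in the same comparisons. At day 5, *Rpl13* and *Rpl11* were thus among the 17 members that were lower in shNFIB than in shControl cells.

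In shKDM4D cells *Rps15* (chromosome 10, from 80292453 to 80294114) had an RPKM of 500 at day 0 and 411 at day 5, against 662 and 658 in shControl, 558 and 643 in shNFIB and 648 and 661 in shMLL1 cells. Both shKDM4D values were the lowest of the 8. Against the control line, the log2 ratio at day 0 was -0.41 (-0.45 to -0.36), and that at day 5 was -0.68 (-0.73 to -0.63). *Rps26*, *Rpl26* and *Rpl41* were lower as well, with log2 ratios of -0.42, -0.41 and -0.36 at day 0 and of -0.37, -0.24 and -0.48 at day 5. *Rpl35* was higher by 0.45 at day 0 but at -0.03 at day 5.

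In shMLL1 cells at day 5 the members with the highest ratios to shControl cells, besides *Rpl27*, were *Rpl35a* at 0.55 (0.50 to 0.60) and *Rpl37* at 0.53 (0.49 to 0.56). The lowest was *Rpl39* with -0.05. Members encoding proteins of both subunits were included, with medians of 0.28 for the large and 0.24 for the small subunit. At day 0 *Rps24* was lowest at -0.34.

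Among 18 members linked to Diamond-Blackfan anemia, an inherited failure of red cell production, 12 were lower and 6 higher at day 5 for shControl, 14 and 4 for shKDM4D, 2 and 16 for shNFIB and 6 and 12 for shMLL1 cells. Their medians were -0.08, -0.19, 0.23 and 0.14, where all members had -0.10, -0.22, 0.20 and 0.06. The 4 members on the X chromosome had medians of -0.06, -0.13, 0.13 and -0.01. The 28 members with snoRNA genes within their span on the same strand, 53 in all, had -0.17, -0.25, 0.17 and 0.03, and the 48 other expressed members -0.08, -0.20, 0.23 and 0.12.

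The ribosomal protein genes outside the naming rule were 7 in number and all expressed. *Rpsa*, the gene of the laminin receptor protein uS2, had a log2 ratio at day 5 over day 0 of -0.40 for shControl, -0.51 for shKDM4D, -0.01 for shNFIB and -0.21 for shMLL1 cells. *Fau*, a fusion with the ribosomal protein eS30, had 0.28, -0.02, 0.44 and 0.60.

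Genes that build ribosomes behaved differently from the genes of the ribosome's own proteins. Of 23 ribosome biogenesis genes, all were lower at day 5 in shControl and shKDM4D cells and 22 in shNFIB and shMLL1 cells, with medians of -0.89, -0.87, -0.39 and -0.80. More than 1.5-fold lower were 16, 17, 5 and 17 of them, where the background was 17.5%, 16.8%, 12.6% and 15.6% of all expressed genes. *Fbl*, which encodes the rRNA methyltransferase fibrillarin, had log2 ratios of -1.39, -1.03, -0.47 and -1.12. *Dkc1*, which encodes the pseudouridine synthase dyskerin, had -1.28, -1.14, -0.96 and -1.44. *Nip7*, which acts in rRNA processing, had -0.32, -0.13, 0.44 and 0.21. In shNFIB and shMLL1 over shControl cells at day 5, the median of the list was 0.53 and 0.51, and the members had 0.15 and 0.27.

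By contrast, the 78 expressed mitochondrial ribosomal protein genes had medians close to those of the cytosolic ones. They were -0.08, -0.25, 0.20 and 0.06 at day 5 over day 0 in shControl, shKDM4D, shNFIB and shMLL1 cells, where the members had -0.10, -0.22, 0.20 and 0.06. In the knockdown lines over shControl cells at day 5 they were -0.19, 0.24 and 0.23. Of 16 translation factors and other genes with TOP mRNAs, 13, 12, 8 and 10 were lower at day 5 in the 4 lines, with medians of -0.22, -0.27, -0.04 and -0.20. *Pabpc1*, which encodes the poly(A)-binding protein, was at -0.62, -0.73, -0.51 and -0.94, while *Eif3e*, a subunit of initiation factor eIF3, was at 0.03, 0.15, 0.77 and 0.58. Of 9 regulators of TOP mRNA translation and of ribosome genes, 8, 8, 7 and 8 were lower at day 5, with medians of -0.14, -0.21, -0.33 and -0.48. In the 4 lines their highest values were 0.0013, 0.14, 0.12 and 0.055, and their lowest were -1.19, -1.26, -0.90 and -1.22. *Rptor*, a subunit of the mTOR complex, was at -0.05, -0.06, 0.07 and 0.05. *Larp1* was at -1.02, -0.97, -0.90 and -0.88 and *Myc* at -1.19, -0.78, -0.66 and -1.22. The effect of these regulators on the members was not tested.

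**Figure D4:**
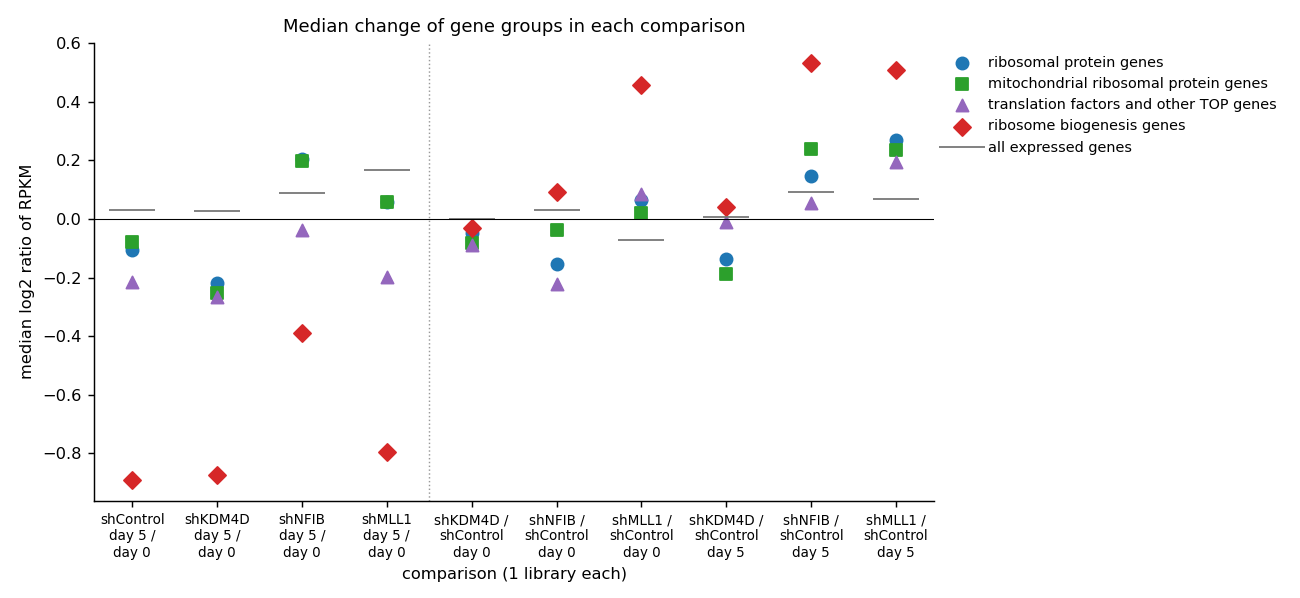
Median log2 ratio of RPKM of ribosomal protein genes (circles), mitochondrial ribosomal protein genes (squares), translation factors and other TOP genes (triangles) and ribosome biogenesis genes (diamonds) in 10 comparisons, with the median of all expressed genes as a gray line. In the day 5 over day 0 comparisons on the left, the diamonds lie between -0.89 and -0.39 and the circles between -0.22 and 0.20.

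Short genes in general also differed with the day. For 288 other expressed protein-coding genes with less than 1000 bases of exons, the median at day 5 over day 0 was 0.17, 0.04, 0.44 and 0.44 in shControl, shKDM4D, shNFIB and shMLL1 cells. For 341 other genes with a mean RPKM above 100 it was -0.01, -0.05, 0.12 and -0.07. A gene with an RPKM of 0 in either library has no ratio and enters no median. For shControl, 160 of the 288 short genes were higher at day 5 and 100 lower. The part of gene length in the values of the members was not tested.

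The genes whose profile over the 8 libraries was most like the mean profile of the members, among 2923 genes with an RPKM above 10 in every library that are neither members nor pseudogenes of ribosomal protein genes, were *Mrpl2* (Pearson's r 0.94), *Eif3k* (0.93), *Asna1* (0.93), *Stoml2* (0.91) and *Ptcd2* (0.91). These genes encode a mitochondrial ribosomal protein, an initiation factor subunit, a factor for tail-anchored proteins and mitochondrial proteins. *Mrpl2* was at an RPKM of 28.7 (day 0) and 21.6 (day 5) for shControl, 22.1 and 16.3 for shKDM4D, 20.4 and 27.5 for shNFIB, and 25.5 and 32.6 for shMLL1. They are the top of a long list, and the correlation is a description.

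For some members the reads are shared with near-identical copies. Of the 79 genes, 69 have at least 1 annotated gene with a near-identical mRNA (95% identity or more), 550 such genes in all, but only 20 pairs of a member and a copy, concerning 17 members, are listed in the files. For *Rps18*, *Rpl27* and *Rps12* the listed copies had most of the combined reads, with 97.7%, 83.1% and 75.5%. How reads that match several genes were assigned is not given in the sources used here.

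*Rps12*, which encodes a small subunit protein, had an RPKM of 50.7 to 90.4, and *Rps12-ps3* (chromosome 19, from 59322290 to 59322783) one of 618 to 1049. The 396 coding bases of both before the stop codon are the same. *Rps18* had an RPKM of 4.11 to 6.67, *Gm10260* (chromosome 13, from 97760072 to 97760632) 571 to 1003 and *Gm11361* (chromosome 13, from 28257528 to 28258134) 117 to 199. Of 456 coding bases of *Rps18*, 4 differ in *Gm10260* and 3 in *Gm11361*. Short stretches of the coding sequences (GENCODE M21) are shown to give an idea of how little separates a member from its copy, with positions that differ among the sequences of a group in capitals. The stretches of *Rps12* are coding bases 1 to 60, and those of *Rps18* are coding bases 312 to 371.

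Rps12: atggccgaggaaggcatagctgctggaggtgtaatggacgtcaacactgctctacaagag
Rps12-ps3: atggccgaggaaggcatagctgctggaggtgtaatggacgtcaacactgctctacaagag
Rps18: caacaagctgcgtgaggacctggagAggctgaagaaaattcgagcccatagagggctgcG
Gm10260: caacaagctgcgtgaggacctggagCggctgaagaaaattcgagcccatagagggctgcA
Gm11361: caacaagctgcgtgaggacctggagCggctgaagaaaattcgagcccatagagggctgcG

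*Rpl27*, which encodes a large subunit protein, was at an RPKM of 22.9 (day 0) and 14.4 (day 5) for shControl, 22.2 and 12.3 for shKDM4D, 22.9 and 21.5 for shNFIB, and 37.7 and 22.2 for shMLL1. *Rpl27-ps3* was at 380 and 365, 387 and 356, 376 and 497, and 438 and 559. With the reads of both added, the log2 ratio at day 5 over day 0 was -0.16 instead of -0.67 for shControl, -0.23 instead of -0.85 for shKDM4D, 0.32 instead of -0.09 for shNFIB and 0.15 instead of -0.76 for shMLL1. The values of *Rpl27* itself, which passed 1.5-fold in several comparisons, thus changed direction in shNFIB and shMLL1 cells when the copy was counted with it. The 20 expressed members with at most 1 copy had medians of -0.05, -0.15, 0.26 and 0.11 at day 5 over day 0, with the same signs as for all members.

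**Figure D5:**
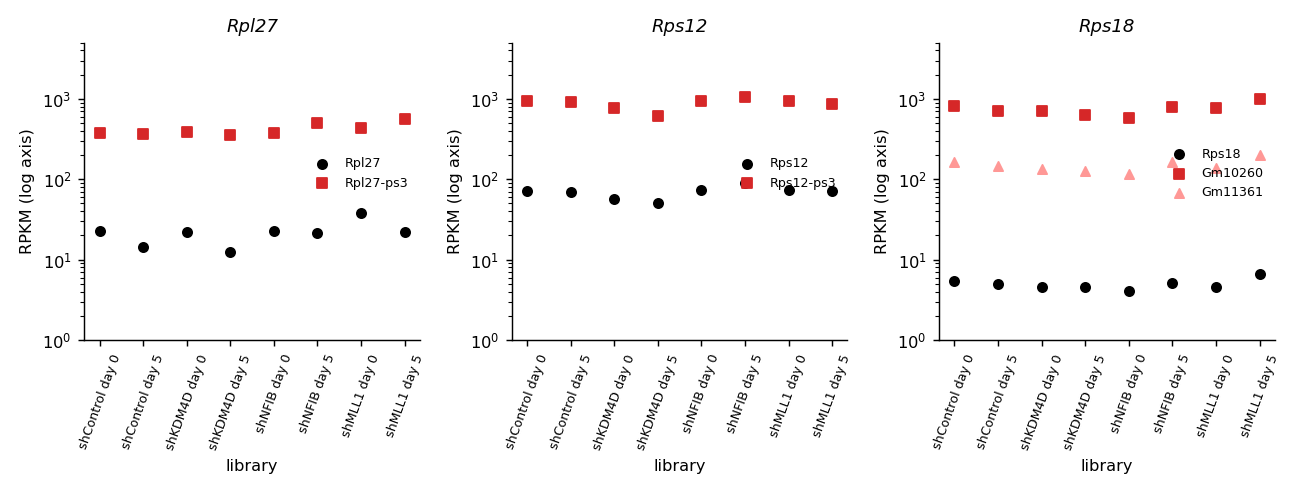
RPKM (log axis) of *Rpl27*, *Rps12* and *Rps18* (black circles) and of their listed near-identical copies (squares and triangles) in the 8 libraries. In every library the copies lie above the member, for *Rps12* at 618 to 1049 against 50.7 to 90.4.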

How the data were processed

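RNA-seq was made from C3H10T1/2 cells at day 0 and day 5, with 1 library in each of 8 groups. Per the labels and methods, CLC Genomics Workbench 11.0.1 was used on the mouse genome GRCm38 (mm10), and the authors deposited 1 RPKM value per gene and library. Their methods mention quantile normalization, which is not visible in the values. Whole reads were recovered from RPKM, GENCODE M21 exon length and depth, with 96.2% to 96.6% of values from 1 to 1000 reads within 0.02 of a whole number. For 4 members (*Rpl17*, *Rps14*, *Rps18* and *Rps28*) the reads were further than 0.05 from whole in at least 1 library, and their intervals are approximate. Intervals of log2 ratios without pseudocount are exact (Clopper-Pearson, 95%, counting error only) and were tested on simulated data. Genes with an RPKM above 1 in any library were compared. Those with an RPKM of 0 in either library of a comparison have no ratio and are left out of its medians.

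Members and lists were chosen with earlier results of these data known. Named are the 3 members with the highest and the 3 with the lowest ratio in each comparison (at least 100 reads in both libraries), the 5 highest and 5 lowest mean levels, members of the lists, and the 5 genes most alike over libraries. Members with the same direction in all lines relative to the members' median were named after their values were seen. Copies were found with BLAST+ 2.17.0 (1 alignment with 95% identity over at least 300 bases, or over 80% of a shorter member mRNA). The rest of the other gene was not required to match. Promoter sequences are from RefSeq. The day was also fitted over the 4 lines with the line as block (limma 3.58.1, pseudocount 1, Benjamini-Hochberg adjustment, trend in the prior variance). Python 3.11.15, numpy 2.4.6, pandas 2.3.3 and scipy 1.17.1 were used. Alternatives were other scalings (TPM scale, median of ratios, quantile normalization), a pseudocount of 1, no filter, a 2-fold limit, added reads of copies and, chosen after seeing the data, removal of rRNA-like genes, members with at most 1 copy and the reads of all listed copies. Whether counting used strand is not given in the sources used here. The values of 1 member are not reported here, although it is counted among the members.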

Additional observations from a re-analysis of the deposited data

Results flagged for a closer look

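In the day 5 over day 0 ratio, the median of the members had the opposite sign to shControl cells in shNFIB (0.20) and in shMLL1 cells (0.059). With 1 library per condition this difference was not tested. In shNFIB cells the median was above 0 under each of the 5 scalings, but by quantile normalization it was 0.010 with 39 members higher and 36 lower, which gives no direction. In shMLL1 cells the sign itself changed.

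The next count was made among named members only, many of them picked for a high or low ratio, and not over all expressed genes. It is therefore no result about the members as a group. The intervals cover counting error only, and in shControl cells they lay above 0 for 16 members and below 0 for 47. Named members whose interval lay on the other side of 0 than in shControl cells numbered 23, counted per line. For 9 of them the signs stayed opposite under each of the 5 scalings. None of these differences was tested. In shNFIB cells these were *Rpl13* (0.29), *Rpl19* (0.34), *Rpl41* (0.41), *Rplp1* (0.27), *Rps20* (0.24) and *Rps6* (0.21), in shMLL1 cells *Rpl19* (0.28), and in shKDM4D cells *Rps21* (-0.14) and *Rps28* (-0.10). The others, which did not keep opposite signs under each scaling, were *Rpl26* (0.23), *Rpl37* (0.21), *Rpl8* (0.079), *Rps23* (0.13) and *Rps26* (0.072) in shNFIB cells. In shMLL1 cells they were *Rpl13* (0.086), *Rpl26* (0.18), *Rpl37* (0.029), *Rps13* (0.11) and *Rps20* (0.050). In shKDM4D cells they were *Rpl13a* (-0.27), *Rpl24* (-0.20), *Rpl26* (0.092) and *Rpl36* (-0.25).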

How the results depend on the processing

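A paired fit over the 4 lines, with the line as the replicate block (chosen after seeing the data), called 3 members higher and 4 lower at day 5 (limma). It called 0 and 8 by median-of-ratios scaling and 0 and 17 by quantile normalization. Among all 11513 genes these counts were 3237 and 2387, 2922 and 2828, and 2385 and 3142. Between lines no paired analysis was possible because there is 1 library per condition, and for the same reason no replicate could be left out of a comparison. The cause of a changed value was not tested. The median log2 ratio at day 5 over day 0 was -0.019 in shControl, -0.12 in shKDM4D and 0.16 in shMLL1 cells on the TPM scale. By median-of-ratios scaling it was 0.13 in shNFIB and -0.11 in shMLL1 cells, and by quantile normalization -0.23 in shControl, 0.010 in shNFIB and -0.079 in shMLL1 cells. Without rRNA-like genes it was -0.21, -0.29, 0.13 and -0.056 in shControl, shKDM4D, shNFIB and shMLL1 cells, and for members with at most 1 copy -0.049, -0.15, 0.26 and 0.11. Against shControl cells at day 0, shNFIB cells had -0.093 on the TPM scale, and shMLL1 cells had 0.026 on the TPM scale, 0.15 by median-of-ratios scaling, 0.00 by quantile normalization and -0.0049 with few-copy members. At day 5, shKDM4D cells had -0.091 (TPM scale) and -0.071 (quantile), shNFIB cells 0.067 (median of ratios), and shMLL1 cells 0.21 (median of ratios), 0.17 (quantile) and 0.20 (few-copy members).

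With the 2-fold limit, 0 members were past it in each comparison. For the other settings the share of all expressed genes past 1.5-fold was not calculated. The counts that follow are therefore no result about the members as a group. In the day 5 over day 0 comparisons, members more than 1.5-fold lower in shControl cells numbered 7 by quantile normalization and 7 without rRNA-like genes. In shKDM4D cells they numbered 6 without rRNA-like genes. In shNFIB cells 0 were higher by median-of-ratios scaling and quantile normalization. In shMLL1 cells 5 were higher and 1 lower on the TPM scale, 0 and 5 by median-of-ratios scaling, 1 and 4 by quantile normalization, 1 and 4 without rRNA-like genes, and 1 was lower with the reads of copies added. At day 0, members lower in shKDM4D cells numbered 1 by quantile normalization and 1 with no filter, and in shNFIB cells 4 by median-of-ratios scaling and 4 without rRNA-like genes. In shMLL1 cells 0 were higher with the reads of copies added. At day 5, members higher in shNFIB cells numbered 1 on the TPM scale and by median-of-ratios scaling, and in shMLL1 cells 0 by median-of-ratios scaling, 2 by quantile normalization and 2 with no filter.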
